A study of Mus musculus with 8 samples.

Results

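The tetraspanins of the mouse kidney are described here as a family of 31 genes, of 47729 genes in the expression tables. The members were chosen by name. They are every gene whose symbol is Tspan followed only by digits, together with Cd9, Cd37, Cd53, Cd63, Cd81, Cd82, Cd151, Upk1a, Upk1b, Rom1 and Prph2. The family was picked because Tspan1 had differed between the genotypes in these same libraries, so the values of Tspan1 in that comparison are given as a description and without a test. The other 30 members had no part in that choice.

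Tetraspanins are small proteins that cross the membrane several times and carry a large outer loop with paired cysteines. They gather integrins, immunoglobulin family proteins, proteases and one another into membrane patches, and they sort proteins into endosomes and secreted vesicles. In the kidney Cd151 is the best known member, because mice that lack it develop glomerular disease on susceptible strain backgrounds.

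RNA was sequenced from whole kidneys of mice on postnatal day 8. The tested animals were Six2Cre+KCTD1fl/fl mice, labelled as a nephron specific Kctd1 knockout, with 4 libraries, and the comparison animals were littermates labelled wildtype, also with 4 libraries. Six2-driven Cre acts in the progenitors of the nephron, so collecting duct, stroma, vessels and blood cells lie outside its lineage. Kctd1 by cell type was not measured. Whether the littermates carried a floxed allele or Cre, and whether the libraries of a group came from separate animals, is not stated in the labels, so the p-values reflect only how far these libraries spread.

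Libraries held 14457760 to 20741076 counts. Kctd1 measured 22.4, 25.3, 25.7 and 23.5 counts per 1000000 scaled counts of a library (CPM) in knockout 1 to 4, against 32.0, 28.9, 32.6 and 32.5 CPM in wildtype 1 to 4, so the groups did not overlap. Such groups were found for 4.03% of all genes tested. The log2 fold change of Kctd1, -0.38 ± 0.09 (SE), did not pass over all genes (edgeR quasi-likelihood test, Benjamini-Hochberg adjusted p = 0.279). Markers of nephron segments were present, such as Slc34a1 of the proximal tubule at 1770 ± 21.5 CPM in knockout and 1774 ± 37.0 CPM in wildtype kidneys (SD, n = 4 each). Of the 5 proximal tubule markers, 2 had separate groups, in opposite directions. Slc5a2 was lower, at 213 ± 27.2 CPM in knockout and 273 ± 23.4 CPM in wildtype kidneys. Slc22a6 was higher, at 160 ± 10.2 CPM in knockout and 144 ± 0.870 CPM in wildtype kidneys. Neither passed over all genes (Benjamini-Hochberg adjusted p = 0.449 and 0.762 with edgeR). Of 12 marker lists for cell types, summed CPM lay lower in every knockout library for 2, the distal convoluted tubule and podocytes, and lay higher in every knockout library for 0. A sum can hide markers that move apart. Of the 4 thick ascending limb markers, 2 had a positive log2 fold change and 2 a negative one. Umod was higher, at 1204 ± 96.1 CPM in knockout and 830 ± 68.9 CPM in wildtype kidneys, with separate groups. Its Benjamini-Hochberg adjusted p was 0.0599 with edgeR and 1.33e-06 with DESeq2. All 5 intercalated cell markers had a positive log2 fold change, and 0 passed with edgeR or DESeq2. The 4 distal convoluted tubule markers summed to 384 to 454 CPM in knockout and 689 to 758 CPM in wildtype libraries. Of these markers 2, Slc12a3 and Pvalb, passed with edgeR (Benjamini-Hochberg adjusted p = 0.00634 and 0.000364). The 3 podocyte markers summed to 557 to 708 CPM in knockout and 739 to 892 CPM in wildtype libraries. Podxl held most of the podocyte sum, at 405 ± 47.9 CPM in knockout and 551 ± 66.5 CPM in wildtype kidneys. The groups of Synpo overlapped, and those of the other 2 podocyte markers did not. No marker of the distal convoluted tubule or podocyte list was at 0, and the part of the markers in the level of Tspan1 was not tested. In whole kidneys, fewer cells of a type and less RNA per cell cannot be told apart.

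Tspan1 encodes a tetraspanin of epithelial and tumour cells that is found on endosomal and lysosomal compartments. Its gene lies on chromosome 4 from 116161869 to 116167601 on the minus strand (GENCODE M21, GRCm38). KCTD1 is known to repress AP-2 transcription factors, which bind the palindrome GCCNNNGGC, so the stretch before the gene is shown with that motif in capitals. It spans chr4:116167622-116167848 (GRCm38.p6, RefSeq), reads 5′ to 3′ on the minus strand, and ends just before the outermost start of the gene in RefSeq, which lies upstream of the GENCODE start and of the start that the RefSeq window is set on.

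Tspan1 promoter: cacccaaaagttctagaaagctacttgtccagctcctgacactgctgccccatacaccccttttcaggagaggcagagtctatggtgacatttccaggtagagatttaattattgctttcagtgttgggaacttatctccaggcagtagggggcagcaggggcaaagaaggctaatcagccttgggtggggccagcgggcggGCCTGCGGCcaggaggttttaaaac

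The stretch of 227 bases held 1 match, GCCTGCGGC, which ended 40 bases before the start that the window is set on. The motif reads the same on both strands, so matches on both strands coincide. Of all 32841 RefSeq windows of 300 bases, running from 250 bases before to 50 after a start, 16.6% held it. RefSeq windows were found for 29 of the 31 members, and 11 of these 29 genes held the motif in at least 1 window, where the share over all 27018 genes was 18.6%. These members had 39 windows, of which 14 held it. The genes were not matched for windows per gene, gene type or base content, so no enrichment is read from these shares, and none was tested. A match is a string of letters and not a measured site, and AP-2 binding was not measured here.

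Tspan1 stood at a higher level in the knockout kidneys. It measured 74.9, 65.6, 75.1 and 80.7 CPM in knockout 1 to 4, against 29.6, 38.0, 39.8 and 34.6 CPM in wildtype 1 to 4. The groups did not overlap, and the lowest knockout library lay 25.8 CPM above the highest wildtype library. The means were 74.1 ± 6.25 CPM in knockout and 35.5 ± 4.49 CPM in wildtype kidneys (SD, n = 4 each), a ratio of 2.09 and a log2 fold change of 1.06. Tspan1 was picked for this difference, so its size may be overstated. Between 487 and 1624 reads per library stood behind these values.

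The lowest knockout value came from knockout 2, in which Rn18s-rs5, a ribosomal RNA gene, took 5.39% of all counts, the highest share of the 8 libraries. Without that library the log2 fold change was 1.11. Knockout 2 and wildtype 3 were also the libraries with many reads of Xist, the transcript of the inactive X chromosome, at 81994 and 101295 counts, and without both the log2 fold change was 1.17. None of the 2326 different 31-base words in the annotated transcripts of Tspan1 occurred in transcripts of another gene, and no exon of another gene overlapped its exons on either strand. Across the family, 20 members shared no such word with another gene and 4 shared more than 2% of theirs, namely Cd63, Cd9, Tspan18 and Tspan31. Exons of 10 members overlapped those of a gene on the other strand.

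**Figure D1:**
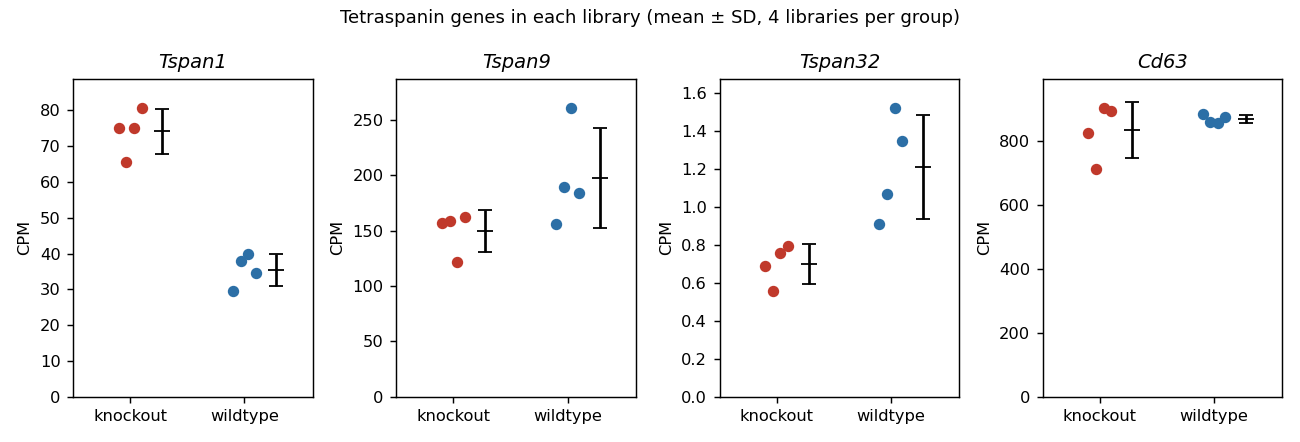
CPM of Tspan1, Tspan9, Tspan32 and Cd63 in each library, knockout left and wildtype right, with the mean and SD of 4 libraries as bars. Tspan1 ranges from 65.6 to 80.7 CPM in knockout and from 29.6 to 39.8 CPM in wildtype libraries, whereas the groups of Tspan9 and Cd63 overlap. The groups of Tspan32 do not overlap either, at 0.555 to 0.795 CPM in knockout and 0.911 to 1.52 CPM in wildtype libraries.

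The place of Tspan1 within the family was read from TPM, a measure that is scaled by transcript length and allows levels of different genes to be compared. Tspan1 measured 23.3, 15.4, 23.0 and 26.4 TPM in knockout 1 to 4, against 9.60, 11.7, 12.7 and 11.8 TPM in wildtype 1 to 4. The TPM summed over all 31 members was 923 in knockout 2 and 1340 to 1462 in the other knockout libraries, against 1362 to 1531 in the wildtype libraries. The low sum of knockout 2 ran alongside its ribosomal RNA share, whose part in it was not tested. Over all genes tested, the median difference of knockout minus wildtype was -0.14 on the log2(TPM + 0.1) scale and 0.0012 with scaled counts, so genotypes are compared here by CPM.

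A share of the family total does not depend on that scale. Tspan1 made up 1.74%, 1.67%, 1.70% and 1.80% of the family's TPM in knockout 1 to 4, against 0.678%, 0.860%, 0.879% and 0.771% in wildtype 1 to 4. By TPM it ranked between 10 and 15 of the 31 members in the knockout libraries, and 17 in every wildtype library. Even in the knockout kidneys it was thus a member of middling level.

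Among members the level was steeply graded. Cd63, the standard marker of lysosomes and secreted vesicles, was first in every library at 599 ± 134 TPM in knockout and 678 ± 35.1 TPM in wildtype kidneys (SD, n = 4 each). Cd81, which is made by most cell types, was second in every library at 153 ± 25.1 TPM in knockout and 180 ± 19.1 TPM in wildtype. Tspan3 and Cd9 followed at 72.6 and 67.4 TPM over all 8 libraries and changed places in wildtype 1. Cd82, known as a metastasis suppressor in human prostate cancer, came next in every library. The first 3 genes made up 64.8% of the family's TPM. For 21 of the 30 pairs of neighbours in this order, the means over all libraries differed by less than the larger SD. By that rule much of the order in the middle of the list is not resolved over the pooled libraries. The SD includes the low TPM of knockout 2, so an order can still hold within each library. Cd9 and Cd82 are such a pair, with Cd9 above Cd82 in every library.

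**Figure D2:**
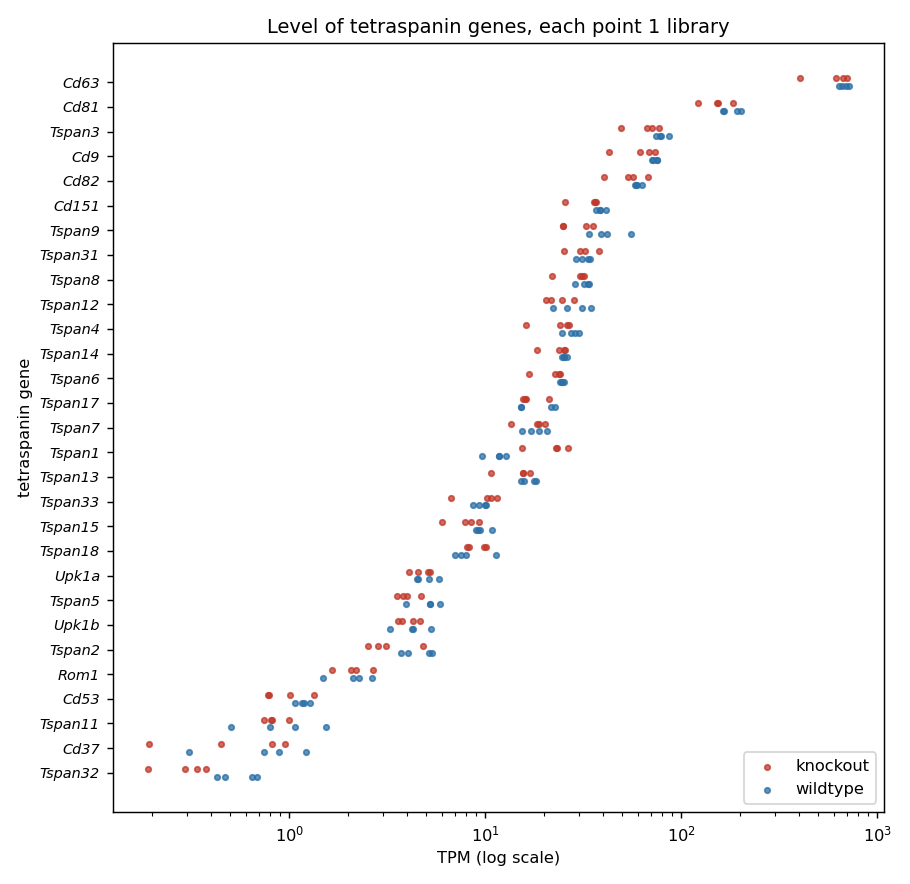
TPM of the 29 members with a mean of at least 0.5 CPM on a log axis, each point 1 library, with knockout above wildtype for each gene. Cd63 and Cd81 lead in every library, and Tspan1 is the gene in the middle of the list whose knockout points lie to the right of its wildtype points.

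Of the 31 members, 28 had a mean of at least 1 CPM. Cd37 was the member just above that minimum, at a mean of 1.38 CPM, and Tspan32 the member just below it, at 0.955 CPM. Low counts also kept Tspan10 and Prph2 out of the test, which left 29 genes. Tspan10 had 2 counts and Prph2 3 counts over all 8 libraries. No library held more than 1 count of either gene, and a count of 0 allows up to 0.145 to 0.208 CPM in these libraries, for counting error only, so no fold is given.

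Across the whole table of 18548 genes tested, 15 passed at an adjusted p under 0.05 (the edgeR quasi-likelihood test with Benjamini-Hochberg adjustment). That is 0.0809% of the genes, with 0.0323% higher and 0.0485% lower in knockout kidneys. DESeq2 called 0.788% of the genes to which it gave an adjusted p. Tspan1 was 1 of them, which is why the family was chosen, and nothing is read from its place there. Of the other 28 members tested, 0 passed with edgeR or with DESeq2, and their smallest Benjamini-Hochberg adjusted p was 0.706 with edgeR and 0.441 with DESeq2. At an unadjusted edgeR p under 0.05 there were 2 of the 28, Tspan9 and Tspan32, both lower in knockout, where the share over all genes was 6.18%.

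The 28 genes had log2 fold changes between -0.79 and 0.25 with a median of -0.06, of which 9 were positive and 19 negative, and under other scalings the signs of Cd82, Tspan8 and Tspan14 turned. Over all 21 alternatives the sign turned in at least 1 for 11 of the 28, the others being Cd63, Tspan31, Tspan17, Tspan7, Upk1a, Upk1b, Tspan11 and Cd37. All genes tested had a median of 0.0012, with 50.3% positive. The 95% intervals (edgeR, not adjusted for the number of genes) lay within 1 unit of log2 on either side of 0 for 26 of the 28 and within 0.5 for 19. Cd37 and Tspan32, the weakest members tested, were the exceptions to the wider bound.

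**Figure D3:**
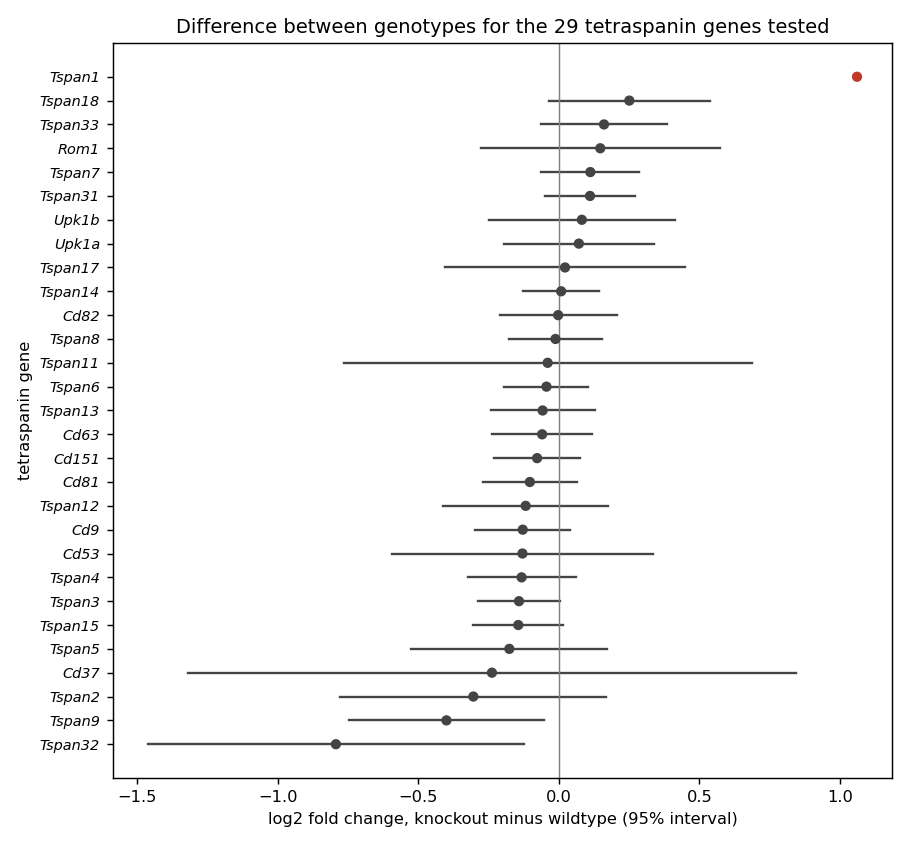
Log2 fold change of knockout minus wildtype for the 29 tetraspanin genes tested, with 95% intervals as lines. Tspan1, in red, is shown without an interval because it was picked for this difference, and the other 28 points lie between -0.79 and 0.25.

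**Figure D4:**
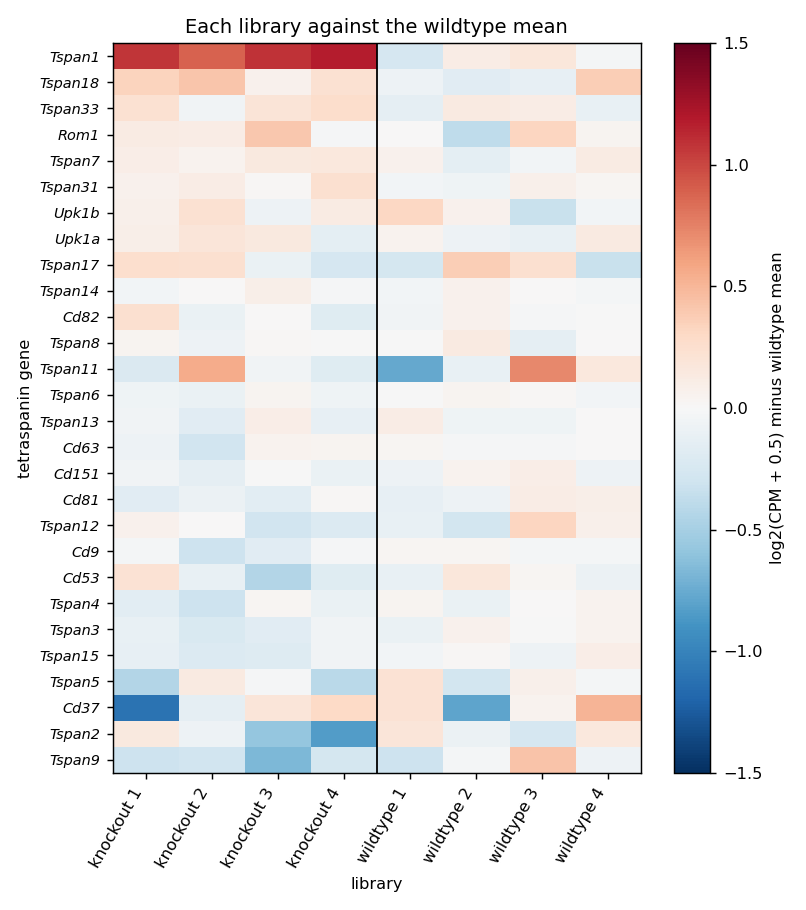
Colour gives log2(CPM + 0.5) in each library minus the wildtype mean for the 28 members with a mean of at least 1 CPM, with knockout columns left and wildtype columns right and genes sorted by fold change. The row of Tspan1 is red in the 4 knockout columns, and Cd37 and Tspan11 vary between libraries of the same genotype.

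The vesicle and endosome group held Cd63, Tspan1, Tspan3 and Tspan6. Cd63 measured 825, 714, 904 and 893 CPM in knockout 1 to 4, against 883, 860, 857 and 876 CPM in wildtype 1 to 4. Its groups overlapped, with both the lowest and the highest value in knockout libraries, and the log2 fold change was -0.06 ± 0.08 (SE; Benjamini-Hochberg adjusted p = 0.950 with edgeR). Without knockout 2 it turned to 0.0071, and it was -0.10 without knockout 3 and -0.09 without knockout 4. A pseudogene copy, Cd63-ps, shares 15.9% of the 31-base words of Cd63, but it measured only 1.35 ± 0.62 CPM in knockout kidneys and 0.833 ± 0.439 CPM in wildtype kidneys. Tspan3, a broadly expressed member, stood at 210 ± 11.0 CPM in knockout kidneys and 232 ± 11.9 CPM in wildtype kidneys with overlapping groups. Tspan6, known to restrain antiviral RIG-I-like signalling in human cells, stood at 49.8 ± 2.18 CPM in knockout kidneys and 51.3 ± 1.21 CPM in wildtype kidneys.

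Genes for vesicle release that work with these tetraspanins were given as a list of 5. Of these, 0 passed with edgeR or DESeq2, and 1, Rab27a, was lower at an unadjusted p under 0.05. Rab27a, a small GTPase that docks secretory vesicles, measured 14.1, 13.8, 11.8 and 14.1 CPM in knockout 1 to 4, against 19.9, 17.3, 15.7 and 18.1 CPM in wildtype 1 to 4. All its knockout values lay below all its wildtype values, which held for 2.06% of all genes tested. The log2 fold change of Rab27a, -0.40 ± 0.11 (SE), did not pass over all genes (Benjamini-Hochberg adjusted p = 0.449 with edgeR). Pdcd6ip, which encodes the vesicle sorting protein ALIX, stood at 182 ± 23.3 CPM in knockout kidneys and 160 ± 12.6 CPM in wildtype kidneys (log2 fold change 0.19, Benjamini-Hochberg adjusted p = 0.846 with edgeR).

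Tetraspanins that bind integrins and immunoglobulin family proteins made up the largest group, with 10 genes, all tested. Of these, 0 passed. The log2 fold change was negative for 9, of which Cd82 and Tspan8 turned positive with upper-quartile scaling, and the median was -0.09. Cd81 measured 308, 325, 310 and 351 CPM in knockout 1 to 4, against 318, 330, 375 and 368 CPM in wildtype 1 to 4. The groups overlapped at a log2 fold change of -0.10 ± 0.08 (SE; Benjamini-Hochberg adjusted p = 0.914 with edgeR), which was -0.06 without wildtype 3.

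Tspan9, known from megakaryocytes and platelets, had the largest difference of this group. It measured 157, 159, 121 and 162 CPM in knockout 1 to 4, against 156, 189, 261 and 184 CPM in wildtype 1 to 4. Wildtype 1 lay among the knockout libraries, with knockout 3 the lowest and wildtype 3 the highest of all. The log2 fold change was -0.40 ± 0.16 (SE; Benjamini-Hochberg adjusted p = 0.711 with edgeR), and it was -0.24 without wildtype 3, which moved it by more than 1.5 times.

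The remaining 8 genes of the group are given by their levels. Cd9, a tetraspanin of egg fusion, platelets and vesicles, stood at 123 ± 11.4 CPM in knockout kidneys and 134 ± 3.29 CPM in wildtype kidneys. Cd151, the partner of laminin-binding integrins, stood at 110 ± 4.18 CPM in knockout kidneys and 116 ± 7.50 CPM in wildtype kidneys. The level of Cd82 was 73.4 ± 9.63 CPM in knockout kidneys and 73.5 ± 2.52 CPM in wildtype kidneys, the closest match between genotypes in the family by log2 fold change.

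Tspan8, known from gut epithelium and carcinomas, had 71.7 ± 2.48 CPM in knockout kidneys and 72.3 ± 5.65 CPM in wildtype kidneys. Tspan4, which drives the formation of migrasomes, had 44.1 ± 4.32 CPM in knockout kidneys and 48.4 ± 2.27 CPM in wildtype kidneys. Tspan18, known to regulate calcium entry in endothelial cells, had 63.3 ± 6.60 CPM in knockout kidneys and 53.2 ± 9.83 CPM in wildtype kidneys. It was the 1 gene of the 10 with a positive log2 fold change, at 0.25 ± 0.13 (SE), and wildtype 4 at 67.8 CPM reached into the knockout range (Benjamini-Hochberg adjusted p = 0.837 with edgeR).

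Tspan2, known from oligodendrocytes, had 22.9 ± 7.13 CPM in knockout kidneys and 28.2 ± 4.14 CPM in wildtype kidneys. Tspan11, a close relative of Cd151, had 6.11 ± 1.83 CPM in knockout kidneys and 6.26 ± 2.82 CPM in wildtype kidneys. Both spread widely within a genotype, with 15.4 to 30.9 CPM for Tspan2 among the knockout libraries and 3.22 to 9.95 CPM for Tspan11 among the wildtype libraries.

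The partners of this group were also without a call. Of the 5 genes of laminin-binding integrins 0 passed with edgeR or DESeq2, and 0 reached an unadjusted edgeR p under 0.05. Itgb1, the integrin beta 1 subunit shared by most of these receptors, stood at 590 ± 18.2 CPM in knockout kidneys and 646 ± 38.9 CPM in wildtype kidneys (log2 fold change -0.13 ± 0.07 SE, Benjamini-Hochberg adjusted p = 0.837 with edgeR). Itgb4, the subunit of hemidesmosomes, had the largest difference of the list at -0.33 ± 0.25 (SE). Of the 3 immunoglobulin family partners 0 passed, with 0 at an unadjusted p under 0.05 and 0 with DESeq2. Igsf3 was the 1 with separate groups, which 4.03% of all genes tested had. It measured 30.4, 36.0, 36.9 and 32.6 CPM in knockout 1 to 4, against 37.4, 40.2, 37.1 and 36.9 CPM in wildtype 1 to 4. The gap was too small to show at this rounding (Benjamini-Hochberg adjusted p = 0.846 with edgeR).

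The TspanC8 tetraspanins escort the protease ADAM10, which cuts Notch receptors and other surface proteins, to the cell surface. Of the 6 members, 5 were tested and 0 passed. Tspan14, the most abundant by TPM, measured 109, 112, 118 and 110 CPM in knockout 1 to 4, against 108, 117, 112 and 109 CPM in wildtype 1 to 4. The values lay close together, at a log2 fold change of 0.01 ± 0.06 (SE; 95% interval -0.13 to 0.14; Benjamini-Hochberg adjusted p = 0.994 with edgeR). This small value turned to -0.01 with total-count scaling, and with 1 library left out at a time it ran between -0.02 and 0.03.

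Tspan15, the escort that directs ADAM10 towards N-cadherin, stood at 57.4 ± 2.82 CPM in knockout kidneys and 63.5 ± 3.33 CPM in wildtype kidneys. Tspan33, known from red cell precursors and B cells, stood at 37.9 ± 3.61 CPM in knockout kidneys and 33.9 ± 3.44 CPM in wildtype kidneys. Tspan5 had 20.9 ± 4.20 CPM in knockout kidneys and 23.6 ± 3.41 CPM in wildtype kidneys, and Tspan17 had 15.6 ± 2.74 CPM in knockout kidneys and 15.4 ± 3.87 CPM in wildtype kidneys. In all 4 genes the groups overlapped. Tspan10 was at or under 1 count, as given above.

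Adam10 itself stood at 153 ± 10.5 CPM in knockout kidneys and 146 ± 6.51 CPM in wildtype kidneys. In the list of Adam10 and the 4 Notch receptors 0 of 5 genes passed with edgeR or DESeq2, and 0 reached an unadjusted edgeR p under 0.05. Notch4, a receptor of endothelial cells, had the smallest p, at 53.5 ± 2.18 CPM in knockout kidneys and 65.2 ± 13.5 CPM in wildtype kidneys (Benjamini-Hochberg adjusted p = 0.814 with edgeR).

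The uroplakin tetraspanins Upk1a and Upk1b form the plaques of the urothelium, which lines the renal pelvis. Upk1a measured 12.2, 13.1, 12.8 and 10.4 CPM in knockout 1 to 4, against 12.0, 10.9, 10.6 and 12.7 CPM in wildtype 1 to 4. The groups overlapped at a log2 fold change of 0.07 ± 0.12 (SE; Benjamini-Hochberg adjusted p = 0.963 with edgeR), and with 1 library left out at a time this ran from 0.03 without knockout 2 to 0.14 without knockout 4. Upk1b had 13.5 ± 1.25 CPM in knockout kidneys and 12.8 ± 2.42 CPM in wildtype kidneys.

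Their partner Upk3a, which pairs with Upk1b, measured 13.2, 16.1, 14.9 and 16.4 CPM in knockout 1 to 4, against 13.3, 11.1, 12.6 and 11.2 CPM in wildtype 1 to 4. Knockout 1 fell within the wildtype range, and the log2 fold change of 0.33 ± 0.12 (SE) did not pass (Benjamini-Hochberg adjusted p = 0.658 with edgeR). Upk2, the partner of Upk1a, stood at 2.88 ± 0.54 CPM in knockout kidneys and 2.78 ± 0.43 CPM in wildtype kidneys. Among the 3 uroplakin partners 0 passed with edgeR or DESeq2. Upk3a was the 1 at an unadjusted edgeR p under 0.05, where the share over all genes was 6.18%. The 5 urothelial markers, none of them at 0, summed to 32.8 to 37.7 CPM in knockout and 27.5 to 35.2 CPM in wildtype libraries, and their part in the level of Tspan1 was not tested. Separate groups, which 4.03% of all genes tested had, were found for 1 of these markers. This was Krt20, a keratin of superficial urothelial cells, from only 18 to 53 counts per library. It stood at 2.56 ± 0.763 CPM in knockout kidneys and 1.31 ± 0.209 CPM in wildtype kidneys. Krt20 did not pass over all genes (log2 fold change 0.96 ± 0.27 SE, Benjamini-Hochberg adjusted p = 0.464 with edgeR). Of the 5 markers, 4 had a positive log2 fold change and 1, Psca, a negative one, at -0.11.

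The leukocyte tetraspanins Tspan32, Cd53 and Cd37 together summed to 5.13 ± 0.350 CPM in knockout kidneys and 6.16 ± 0.565 CPM in wildtype kidneys. These sums just overlapped, at 4.82 to 5.61 CPM in knockout and 5.60 to 6.77 CPM in wildtype libraries, and Cd53 held most of them. Tspan32, known from blood cells, measured 0.690, 0.555, 0.757 and 0.795 CPM in knockout 1 to 4, against 0.911, 1.07, 1.52 and 1.34 CPM in wildtype 1 to 4. All knockout values lay below all wildtype values, from 10 to 31 counts per library, at a log2 fold change of -0.79 ± 0.30 (SE; Benjamini-Hochberg adjusted p = 0.706 with edgeR). Leaving Tspan1 aside, Tspan32 was the 1 of 28 members tested whose groups did not overlap, a share near the 4.03% of all genes tested that had such groups; those with knockout lower made up 2.06% of all genes.

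Tspan32 overlaps its antisense transcript Tspan32os, at 0.103 ± 0.031 CPM in knockout kidneys and 0.257 ± 0.228 CPM in wildtype kidneys. The library kit was directional, but the labels do not say whether counting used the strand, so reads of the pair may be mixed.

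Cd53, a leukocyte tetraspanin, measured 4.08, 3.16, 2.41 and 2.98 CPM in knockout 1 to 4, against 3.16, 3.93, 3.53 and 3.22 CPM in wildtype 1 to 4. Its groups overlapped (log2 fold change -0.13 ± 0.21 SE, Benjamini-Hochberg adjusted p = 0.960 with edgeR). This value was -0.28 without knockout 1, -0.02 without knockout 3 and -0.06 without wildtype 2. Cd37, which B cells carry at high levels, measured 0.376, 1.22, 1.65 and 1.84 CPM in knockout 1 to 4, against 1.70, 0.600, 1.47 and 2.21 CPM in wildtype 1 to 4. Its spread within each genotype was wider than the difference between them (log2 fold change -0.24 ± 0.49 SE, Benjamini-Hochberg adjusted p = 0.971 with edgeR). The sign turned without knockout 1 (0.06) and without wildtype 4 (0.01), and the value was -0.38 without knockout 3, -0.48 without knockout 4 and -0.49 without wildtype 2.

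The summed CPM of 6 leukocyte markers was 68.3 to 77.5 in knockout and 76.3 to 85.7 in wildtype libraries, which just overlap. Separate groups, which 4.03% of all genes tested had, were found for 1 marker. This was Csf1r, a receptor of macrophages, at 52.4 ± 1.67 CPM in knockout kidneys and 59.5 ± 3.19 CPM in wildtype kidneys. It did not pass over all genes (Benjamini-Hochberg adjusted p = 0.706 with edgeR). Csf1r held most of the sum, whose mean was 73.2 CPM in knockout and 79.3 CPM in wildtype. Of the 5 markers tested, 3 had a negative log2 fold change and 2, Ptprc and Ms4a1, a positive one. Ptprc stood at 11.0 ± 2.53 CPM in knockout kidneys and 9.89 ± 1.77 CPM in wildtype kidneys. Of the 6 markers, Cd3e of T cells was at 0 in 1 library, with 0 to 8 counts per library, and no marker was at 0 over all 8. The part of these markers in the level of Tspan32 was not tested.

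The photoreceptor tetraspanins Rom1 and Prph2, which shape the discs of rod outer segments, differed in level. Rom1 measured 5.77, 5.72, 7.09 and 5.17 CPM in knockout 1 to 4, against 5.29, 3.93, 6.72 and 5.42 CPM in wildtype 1 to 4. The groups overlapped (log2 fold change 0.15 ± 0.19 SE, Benjamini-Hochberg adjusted p = 0.950 with edgeR). It was 0.05 without knockout 3, 0.03 without wildtype 2 and 0.28 without wildtype 3. Prph2 was at or under 1 count per library.

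The remaining members were Tspan7, Tspan12, Tspan13 and Tspan31, and 0 of them passed. Tspan31, which lies beside Cdk4 and is amplified with it in human sarcomas, measured 83.8, 86.5, 81.0 and 94.1 CPM in knockout 1 to 4, against 77.3, 76.5, 84.4 and 81.6 CPM in wildtype 1 to 4. The groups overlapped (log2 fold change 0.11 ± 0.07 SE, Benjamini-Hochberg adjusted p = 0.899 with edgeR; 0.07 without knockout 4). Its exons overlap those of Cdk4 on the other strand, at 228 ± 20.5 CPM in knockout kidneys and 231 ± 6.72 CPM in wildtype kidneys.

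Tspan12, a component of the Norrin receptor that strengthens signalling through Fzd4, had 74.4 ± 8.75 CPM in knockout kidneys and 80.7 ± 14.6 CPM in wildtype kidneys. Of the 4 other Norrin receptor genes 0 passed with edgeR or DESeq2, and 0 reached an unadjusted edgeR p under 0.05. Fzd4 stood at 159 ± 6.83 CPM in knockout kidneys and 176 ± 14.2 CPM in wildtype kidneys (Benjamini-Hochberg adjusted p = 0.837 with edgeR), and Ndp, the ligand, at 9.21 ± 0.62 CPM in knockout kidneys and 8.51 ± 1.15 CPM in wildtype kidneys. Tspan7, whose loss causes X-linked intellectual disability in humans, had 59.4 ± 1.98 CPM in knockout kidneys and 54.9 ± 4.51 CPM in wildtype kidneys. Tspan13 had 53.2 ± 4.59 CPM in knockout kidneys and 55.3 ± 3.14 CPM in wildtype kidneys.

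Taking the 25 partner genes as a whole, 0 passed with edgeR or DESeq2. An unadjusted edgeR p under 0.05 was found for 2, Upk3a and Rab27a, where the share over all genes was 6.18%. Groups did not overlap for 2 of the 25, Igsf3 and Rab27a, where the share over all genes was 4.03%. The median log2 fold change of the 25 genes was 0.0051, with 13 positive and 12 negative. Over all 31 tetraspanins, summed CPM was 2557 to 2816 in knockout and 2725 to 2914 in wildtype libraries, which overlap.

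Some members lie side by side in the genome, within 100000 bases on 1 chromosome, in 4 pairs. Tspan18 and Cd82 lie 84605 bases apart on chromosome 2, with log2 fold changes of 0.25 and -0.0027. Tspan11 and Tspan9 lie 7418 bases apart on chromosome 6, with -0.04 and -0.40. Cd151 and Tspan4 lie 3766 bases apart on chromosome 7, with -0.08 and -0.13. Tspan32 and Cd81 lie 33094 bases apart on the same chromosome, with -0.79 and -0.10. Tspan1 has no other member within that distance.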

How the data were processed

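RNA of whole kidneys, in 8 libraries, 4 knockout and 4 wildtype, was prepared with a directional kit, per the labels' protocols. Salmon, DESeq2 1.14.1 and mm10 are named in the submitters' processing notes, with no annotation release. The authors deposited estimated counts in whole numbers in 1 table and TPM with gene symbols in another. The count table has 47729 rows without names, which were matched by position to the TPM table after its 2 repeated identifiers were dropped. The match was checked on 13251 genes (minimum 50 counts per library): log2 of count over TPM varied between libraries with a median SD of 0.000745, against 0.281 after a shift of 1 row.

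Genes were filtered with filterByExpr (18548 kept), scaled with TMM factors and compared with the quasi-likelihood test of edgeR (4.0.16, R 4.3.3, two-sided, genotype alone, Benjamini-Hochberg threshold 0.05). The test was also run on counts simulated from the means and spreads fitted to these same libraries. That outcome is not given here, and nothing is read from it. SE is the absolute log2 fold change over the square root of F. Alternatives used DESeq2 1.42.0 and limma 3.58.1. Coordinates, overlaps and 31-base words came from GENCODE M21, and promoter windows from RefSeq (GRCm38.p6).

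The members and lists were chosen with earlier results of these data known. Values per library are given for Tspan1, members with an unadjusted p under 0.05, the member with the highest TPM of each role list and those next to the minimum of 1 CPM. Every other member is given by its level. From each partner list, up to 2 genes with the smallest p were named, and Upk2 and the markers named were chosen after their values were seen. A few marker genes are not reported here and were left out of the sums.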

Additional observations from a re-analysis of the deposited data

Results flagged for a closer look

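Of 57 sets of 4 libraries looked at among the members, 3 had 1 value well apart from the rest. Chance alone sets 1 in 20 such sets apart, or 2.85. Tspan9 in knockout 3 measured 121 CPM, below the other knockout libraries. Tspan11 in knockout 2 measured 8.82 CPM, above the other knockout libraries. Tspan18 in wildtype 4 measured 67.8 CPM, above the other wildtype libraries.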

How the results depend on the processing

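Over all genes 15 passed, 6 higher and 9 lower in knockout. DESeq2 called 143 (57 higher, 86 lower), edgeR with no filter on low counts 27 (11 and 16), limma on log2(TPM + 1) 5 (3 and 2) and on log2(TPM + 0.1) also 5 (3 and 2), and edgeR without knockout 2 and wildtype 3 together 3 (1 and 2). Leaving out 1 library at a time gave 10 to 52 calls, 5 to 13 higher and 5 to 39 lower, with 29 without knockout 3, 52 without wildtype 4 and 10 without wildtype 3. Among tetraspanins 1 was called, Tspan1, for whose call the family was chosen, and 0 in both limma fits on TPM, in which the median of all genes shifted by -0.11 and -0.14. The log2 fold change of Tspan1 was 0.98 to 1.12 with 1 library left out, and 0.87 on log2(TPM + 1). None of the other 28 members passed in any of the 21 alternatives. The sign of 3 of them, Cd82, Tspan8 and Tspan14, changed with scaling, and that of 11 in at least 1 alternative. With the replicate number as a block 10 genes were called, 5 higher and 5 lower. Libraries with the same number correlated at -0.074 to 0.043, and those with different numbers at -0.13 to 0.101. With 4 libraries per group these values cannot decide whether the numbers pair samples, and the labels do not state it. The cause of these shifts was not tested. Small differences in members near 1 CPM are not resolved at this depth.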
